A study of Mus musculus with 12 samples.

Results

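The genes described are the nuclear-encoded subunits of the mitochondrial respiratory chain and ATP synthase in cells sorted from mouse midbrain. They were taken by symbol from the deposited count table: names starting with Ndufa, Ndufb, Ndufc, Ndufs, Ndufv, Uqcr, Cox4i, Cox5, Cox6, Cox7, Cox8 or Atp5, together with Sdha, Sdhb, Sdhc, Sdhd and Cyc1. Of 93 symbols with these names, 7 Ndufaf assembly factors were left out, and 5 of the other 86 had a summed count under 120 over the 12 libraries. The 81 members left, of 24346 genes in all, comprise 36 genes of complex I, 4 of complex II, 9 of complex III, 15 of complex IV and 17 of complex V. Atp5sl, named Dmac2 in RefSeq, is counted among these 17 by its deposited symbol alone. Just inside the threshold were Cox6b2 with a summed count of 131.5 and Cox7a1 with 139.9. Just outside it were Cox4i2 with 107.7 and Cox8c with 93.9, followed by Cox7b2 with 71.9, Cox6a2 with 36.4 and Cox8b with 4.2.

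The respiratory chain passes electrons from NADH (through complex I) and succinate (through complex II) to ubiquinone, then through complex III and cytochrome c to oxygen at complex IV. Protons pumped on the way drive ATP synthase, complex V. Except in complex II, which is wholly nuclear-encoded, these subunits assemble with others encoded by mitochondrial DNA, and inhibition of complex I has long been linked to loss of dopaminergic neurons in the substantia nigra. Mitochondrially encoded subunits are not analysed here.

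The study compared gene expression in dopaminergic neurons of the midbrain, 7 and 12 weeks after injection, between saline and preformed fibrils of α-synuclein carrying G51D, a substitution known from familial Parkinson's disease. All mice were C57BL/6 and were injected into the nigra on both sides with saline or with 20 µg of fibrils at 5 µg/µL, which gave 4 groups of 3 libraries: saline at 7 weeks, synuclein at 7 weeks, saline at 12 weeks and synuclein at 12 weeks. Cells positive for the fluorescent reporter hKO1 were sorted from dissected midbrain, and RNA was amplified with a SMARTer kit for very small inputs. No source used here gives the animals' age, the promoter driving hKO1, or whether each replicate came from its own animal. The p-values therefore cover only the spread between these libraries.

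The libraries held 2506730 to 5533324 assigned fragments, recovered from the scaled counts. The second 12-week synuclein library had fragments in 17409 genes, against 19960 to 21135 in the others. The label gives the cells as neural, and the dopaminergic markers were present, with summed levels of 637 to 2686 CPM (counts scaled to the size of the library) for 12 genes and Foxa2 at 0 in 4 libraries. Markers of other cells were also present: 12 oligodendrocyte genes summed to 16148 to 44118 CPM and 12 endothelial genes to 12809 to 32637 CPM in the same libraries, with none of these 24 at 0 in any library. The subunits are expressed in all of these cell types, so the values below belong to the sorted mixture. In bulk samples, fewer cells of a type and less RNA per cell cannot be told apart.

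The members were among the most abundant messages per length. Their median mean level was 301.6 FPKM (fragments per kilobase of gene model, scaled to library size), against 6.71 FPKM over the 17380 genes that passed the low-count filter, as all 81 members did. Uqcr11, a small accessory subunit of complex III, had the highest mean at 1310 FPKM. It was followed by Atp5j, a peripheral stalk subunit of ATP synthase, at 1170 FPKM and Cox4i1, the general isoform of a regulatory complex IV subunit, at 1120 FPKM. These ranks lie close together, since the libraries of each of these genes spread over the next gene's mean. The lowest means were 8.47 FPKM for Ndufa4l2, 10.5 for Cox6b2, 13.4 for Atp5s, 20.3 for Atp5sl and 21.1 for Cox7a1.

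**Figure D1:**
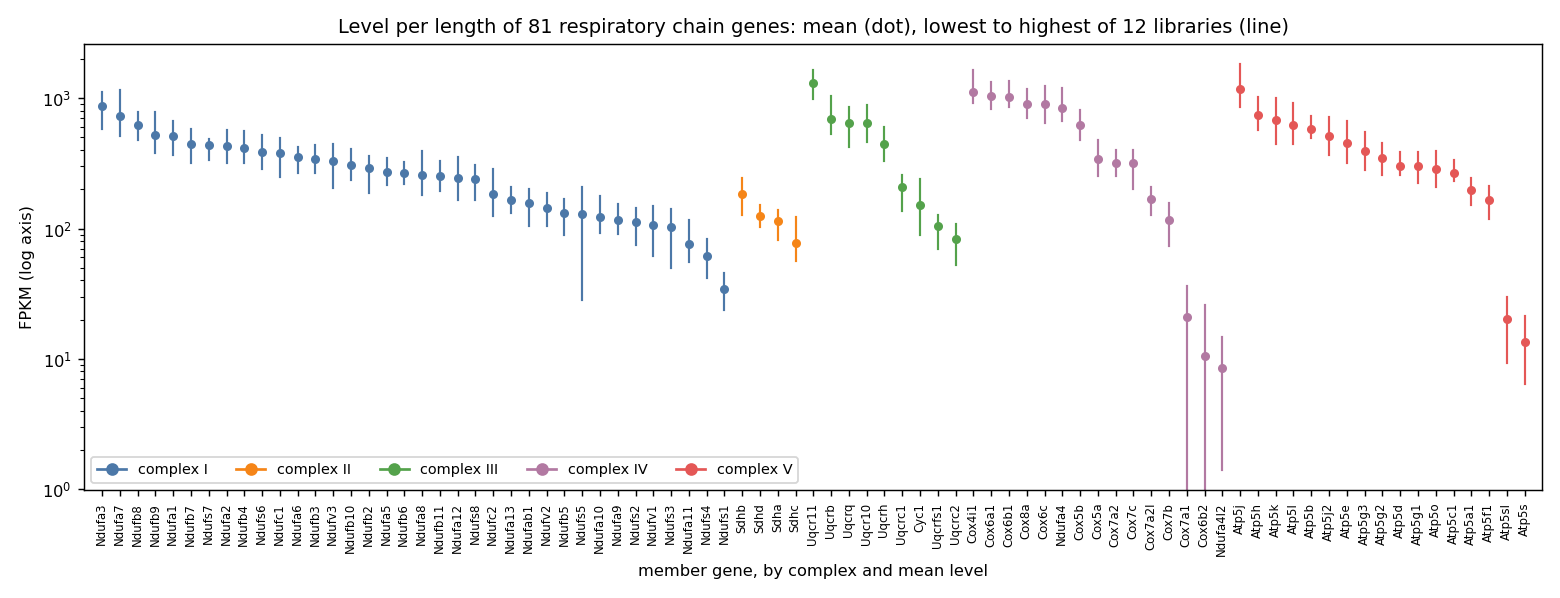
Mean FPKM of each of the 81 members on a log axis (dot), with the lowest and highest of the 12 libraries (line), ordered by complex and level; lines that reach the axis are members with a library at 0. Most members lie between 100 and 1310 FPKM, and 3 complex IV isoforms, Atp5s and Atp5sl lie at or below 21.1 FPKM.

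In complexes I, III and V, levels per length differed by class of subunit. In complex I, the 7 nuclear core subunits, which carry the flavin and iron-sulfur clusters, had a median of 112.9 FPKM against 289.3 FPKM for the 29 accessory subunits. Ndufs1, the largest core subunit, was the lowest of complex I at 34.2 FPKM, and Ndufs7 was the highest core subunit at 434 FPKM. The accessory subunits Ndufa3 and Ndufa7 led the complex with 877 and 726 FPKM.

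Complex III showed the same order, with 129.1 FPKM for its catalytic subunits Cyc1 (cytochrome c1) and Uqcrfs1 (the Rieske iron-sulfur protein) against a median of 641.9 FPKM for 7 accessory subunits. The 4 genes of complex II were low throughout: Sdhb, the iron-sulfur subunit, had 185.6 FPKM, the membrane anchor Sdhd 124.2, the flavoprotein Sdha 113.9 and the anchor Sdhc 77.5. In complex V, the 5 genes of the catalytic head and central stalk had a median of 304 FPKM, the 3 c-ring genes 349 FPKM and the 7 genes of the peripheral stalk and membrane part 620 FPKM. Atp5b, the catalytic β subunit, stood at 576 FPKM, while Atp5a1, its α partner in the head, stood at 196 FPKM. The head median is the value of Atp5d, whose locus in the tables is shared with 48 other genes, and the peripheral median that of Atp5l, with 84.8% of its 50-base transcript words shared with another gene. In that class 5 of 7 genes share over 10% of their words, so the difference between these classes is uncertain. FPKM divides by the length of the deposited gene model, so a model that is too long lowers these values.

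Complex IV contains subunits with paired isoforms, in which a general form is widespread and a second form is restricted to some tissues. The general forms dominated: Cox6a1 had 1038 FPKM, Cox6b1 1030, Cox8a 902, Ndufa4 (first named for complex I and since placed in complex IV) 837 and Cox7a2 320. Cox7a1, known from heart and muscle, lay between 0 and 0.111 times Cox7a2 in each library. Cox6b2, known from testis, lay between 0 and 0.0218 times Cox6b1, and Ndufa4l2, known to be induced by low oxygen, between 0.00196 and 0.0199 times Ndufa4. In CPM, Ndufa4l2 had its highest value, 11.4, in the third 7-week synuclein library. There, 12 pericyte and smooth muscle markers summed to 1132 CPM against 182 to 401 CPM in the other libraries, with none of the 12 at 0 in any library. Ndufa4l2 was nearly as high, at 10.2 CPM, in the third 12-week synuclein library, where the markers summed to 367 CPM. It had 8.3 CPM in the third 7-week saline library, where they summed to 190 CPM. The part of those cells in these values was not tested. Cox7a1 was at 0 in the second 12-week synuclein library, where a count of 0 allows up to 0.632 CPM, and Cox6b2 was at 0 in the second 12-week saline library, where it allows up to 1.09 CPM (3 fragments, counting error only).

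The c ring of ATP synthase is encoded by 3 genes whose products differ in the targeting sequence and share the mature protein. Per length their levels were close: 393 FPKM for Atp5g3, 349 for Atp5g2 and 302 for Atp5g1. The Atp5g3 to Atp5g1 ratio, singled out after the values were seen, lay at 1.37, 1.71 and 1.58 in the 7-week saline libraries and 1.5, 1.54 and 1.48 in the 7-week synuclein libraries. At 12 weeks it was 0.996, 1.26 and 1.36 with saline and 0.795, 0.855 and 1.53 with synuclein. At 12 weeks, 5 of 6 libraries lay below all 6 at 7 weeks, and the third 12-week synuclein library lay within their range. The words that sequencing reads can share with other genes bear on Atp5g2 and Atp5g1. Of the 50-base transcript words, 38.3% for Atp5g2 and 11.1% for Atp5g1 also occur in another gene, against 0% for Atp5g3. Atp5g1, the denominator of the ratio, shares words with 366 other genes, so the ratio is uncertain too.

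**Figure D2:**
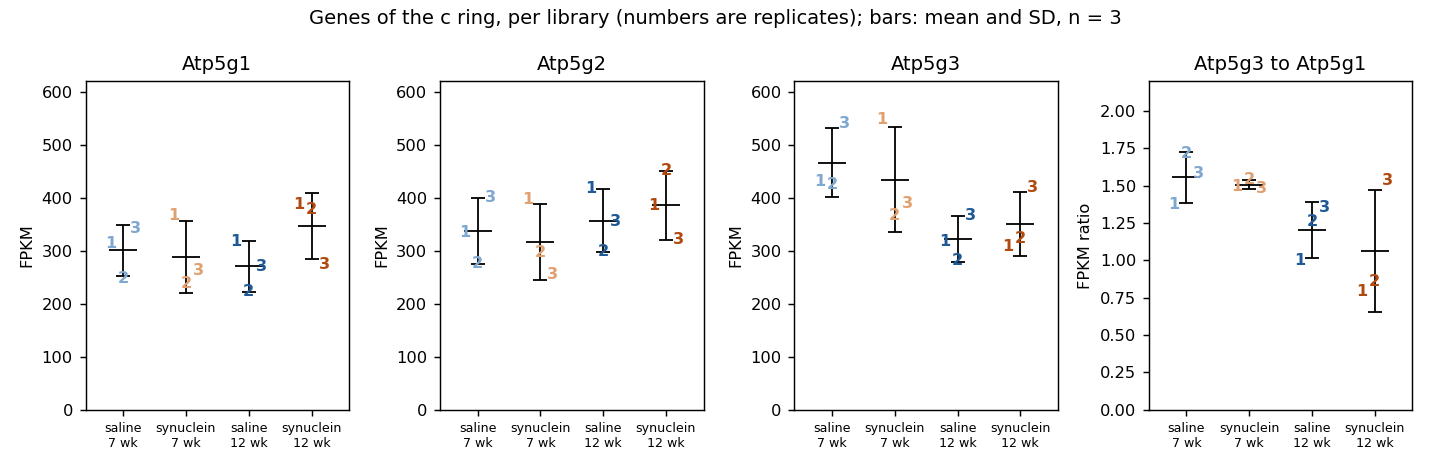
FPKM of the 3 c-ring genes and the Atp5g3 to Atp5g1 ratio in each library (numbers are replicates), by group, with mean and SD (n = 3). Atp5g3 stands above Atp5g1 in all 6 libraries at 7 weeks, and in 3 of 6 at 12 weeks it lies below it.

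To show the bases around the start of members with recurring motifs, RefSeq windows of 300 bases (250 before and 50 after a start, GRCm38.p6) were searched for 3 motifs on both strands. NRF1, GABP (an ETS factor) and YY1 are known regulators of nuclear respiratory genes. Of the 81 members, 68 had a window. The NRF1 motif, the run of capitals shown for Atp5g2, was in 5 of 68 (7.35%), against 1.95% of 12229 tested genes with a window and 2.85% of the 1649 above 100 CPM. The ETS motif CCGGAAGT was also in 5 (7.35%), against 7.26% and 7.88%, and the YY1 motif, the run of capitals shown for Ndufs7, in 5 (7.35%), against 1.43% and 2.06%. In all, 15 members held a motif, so most members held none of these exact letters. The motif lay wholly before every start in 4 of the 5 members with the NRF1 motif, in 3 of 5 with the ETS motif and in 0 of 5 with the YY1 motif, which began past a start in all 5. The stretches below show a motif in capitals on the strand of the gene. The first 5 lie before the start, and the motif of Ndufs7, a core subunit, begins 24 bases past it:
Atp5g2: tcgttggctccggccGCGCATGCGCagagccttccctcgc
Atp5k: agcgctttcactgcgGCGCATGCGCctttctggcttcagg
Cox6a1: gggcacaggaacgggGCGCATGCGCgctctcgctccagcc
Ndufa11: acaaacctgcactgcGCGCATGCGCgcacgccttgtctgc
Uqcr11: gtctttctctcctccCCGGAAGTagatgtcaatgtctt
Ndufs7: cgaggccAAGATGGCGGCgctggcg
They lie at chr15:102671065-102671104 for Atp5g2 (minus strand), chr5:108434425-108434464 for Atp5k (minus), chr5:115349096-115349135 for Cox6a1 (minus), chr17:56717687-56717726 for Ndufa11 (plus), chr10:80406865-80406902 for Uqcr11 (minus) and chr10:80249466-80249490 for Ndufs7 (plus).

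The subunits together made up 1.23% to 1.82% of each library after TMM scaling. Their summed CPM was 15417, 13518 and 18227 in the 7-week saline libraries, 16808, 13209 and 12713 with synuclein at 7 weeks, 13950, 12251 and 13983 with saline at 12 weeks, and 13073, 15798 and 14545 with synuclein at 12 weeks. The groups overlapped between treatments at both times. The split of the sum over complexes was narrow: complex I took 32.4% to 35.0% of it in every library, complex II 3.91% to 5.42%, complex III 11.3% to 12.9%, complex IV 19.7% to 21.9% and complex V 27.1% to 29.8%.

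**Figure D3:**
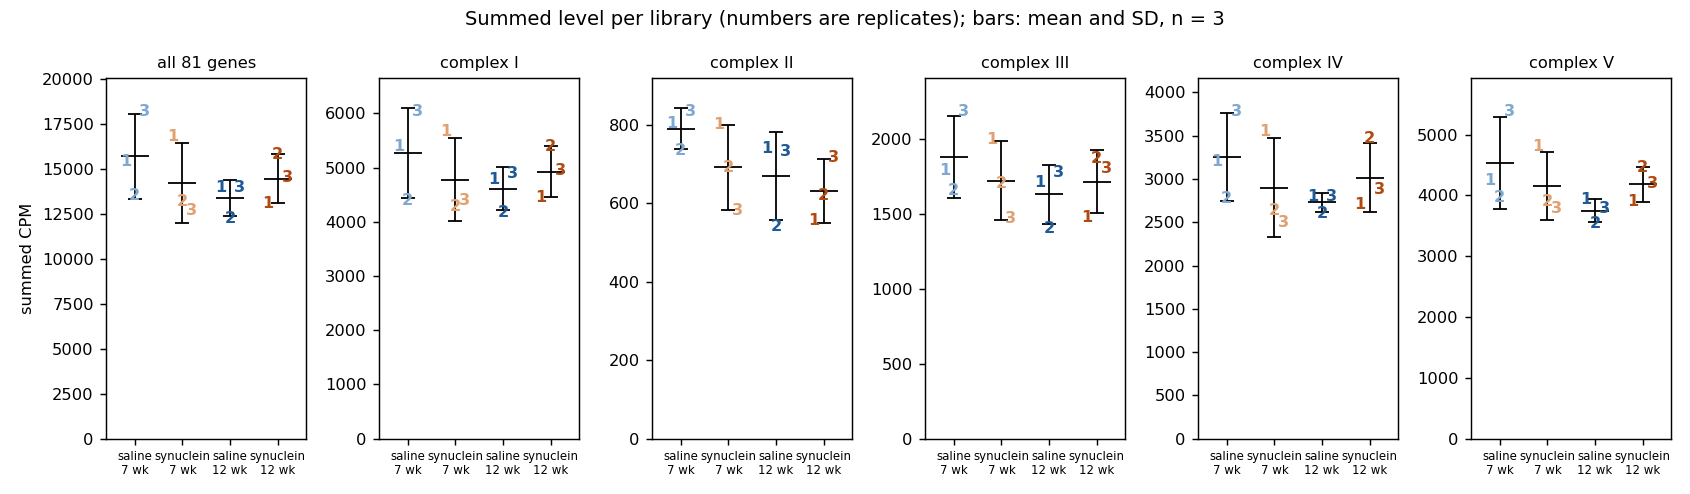
Summed CPM of all 81 members and of each complex in each library (numbers are replicates), with mean and SD (n = 3). The highest sum is the third 7-week saline library at 18227 CPM and the lowest the second 12-week saline library at 12251 CPM.

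The members varied together within groups. Over the 12 libraries, deviations from group means had a median pairwise correlation of 0.465, with 89.6% of pairs above 0, as a description of libraries that share depth and scaling. The 60 members above 100 CPM had 0.512, and the 2098 other genes above 100 CPM had 0.105, with 58.2% of pairs above 0. Their median biological coefficient of variation was 22.5%, against 44.4% over all genes tested and 23.6% over the 2158 genes above 100 CPM. The third 7-week saline library, the deepest, held the highest of 12 values for 35 members (43.2%), against 26.9% of genes above 100 CPM. The second 12-week saline library held the lowest for 23. The non-members whose profile over the 12 libraries was closest to the members' mean log2 CPM were Ier3ip1 (r = 0.92), Cops4 (0.89), Oaz1-ps (0.88), 2210013O21Rik (0.88) and Ap2s1 (0.86).

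**Figure D4:**
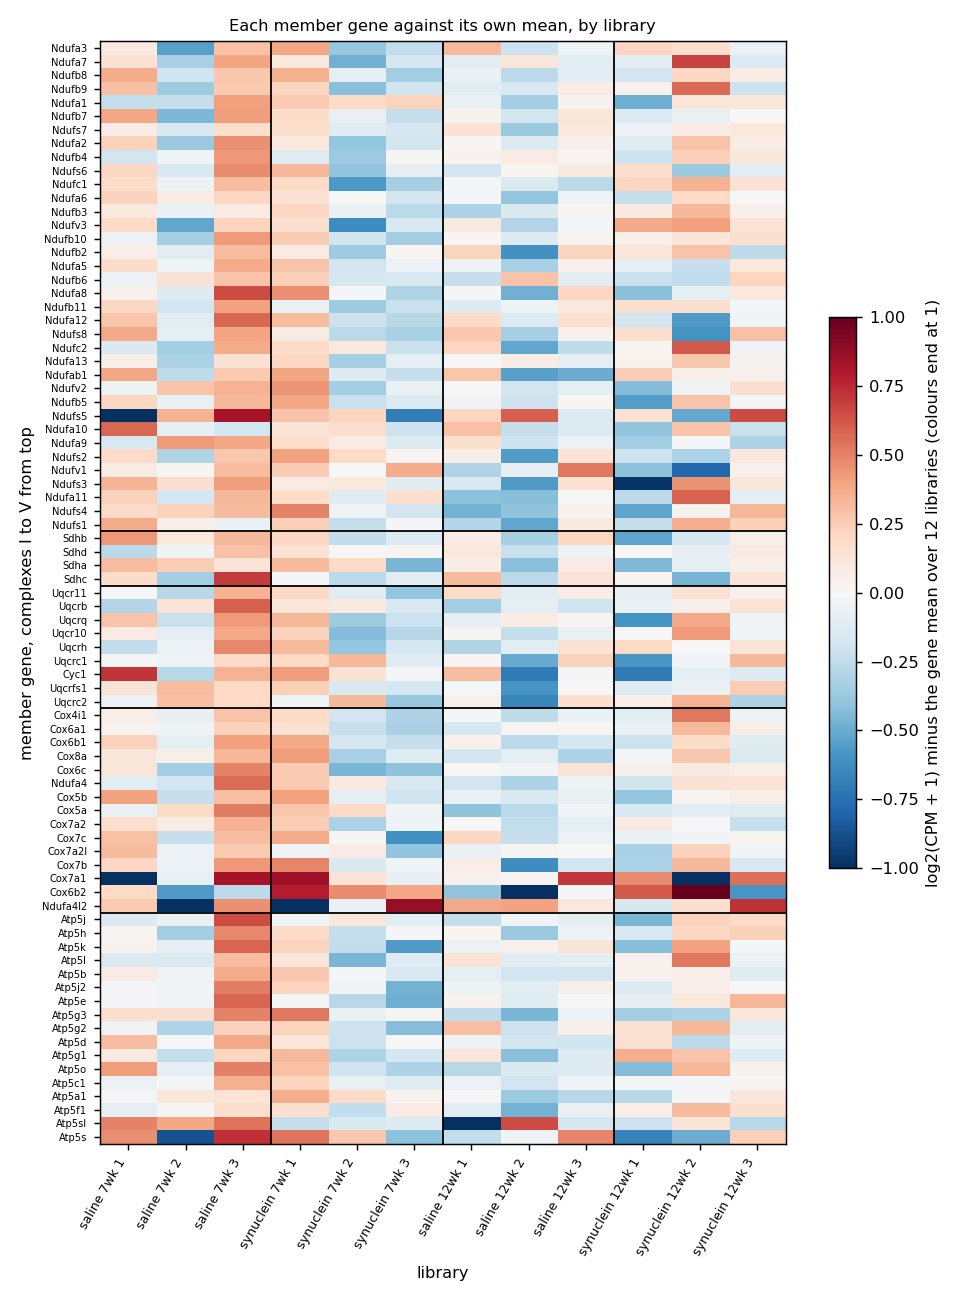
Log2(CPM + 1) of each member minus its own mean over 12 libraries, by library, with complexes I to V from the top; colours end at 1. The third 7-week saline library holds the highest of 12 values for 35 members, and the libraries of a group differ in colour.

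At 7 weeks, 71 of 81 members were lower with synuclein than with saline and 10 were higher, with a median log2 fold of -0.15. No member passed edgeR's quasi-likelihood test at an adjusted p under 0.05, nor did any gene (0.0%), and 0 members had an unadjusted p under 0.05 against 1.64% of genes. DESeq2 and limma-voom likewise called 0 members. All genes tested had a median of 0.01, but the 2158 genes above 100 CPM had -0.12, with 72.7% lower. When libraries were scaled to those abundant genes, a choice made after seeing the data, 40 members were lower, the member median was 0.00 and that of all genes 0.15. On the TMM scale the member median rested on single libraries. It was -0.05 without the third saline library (48 members lower), -0.09 without the second or without the third synuclein library (63 lower each), -0.28 without the second saline library (76 lower) and -0.31 without the first synuclein library (73 lower).

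By complex, 32 of 36 members of complex I, 3 of 4 of complex II, 8 of 9 of complex III, 12 of 15 of complex IV and 16 of 17 of complex V were lower, with medians of -0.15, -0.26, -0.15, -0.15 and -0.11; these counts are on the TMM scale, and on the abundant-gene scale 40 of 81 members were lower in all. Groups did not overlap for 2 lower members (3.75% of all genes) and 1 higher member (4.7%). Atp5sl, named Dmac2 in RefSeq, was counted in complex V by its deposited symbol alone. It had 42.4, 39.2 and 43.9 CPM with saline and 25.2, 26.6 and 27.1 with synuclein. Its log2 fold was -0.67 ± 0.39 (SE; adjusted p = 1). Ndufs3, a core subunit of the complex I arm in the matrix, had 94.7, 83.9 and 99.6 CPM with saline and 78.7, 79.8 and 68.3 with synuclein, a log2 fold of -0.29 ± 0.31. Cox6b2 had 3.1, 1.4 and 2.0 CPM with saline and 5.2, 4.0 and 3.7 with synuclein, so all 6 libraries lay at a few CPM. Of Ndufs3's 50-base words, 39.7% are shared with other genes, so its value is uncertain.

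At 12 weeks the counts were the other way: 57 members were higher with synuclein and 24 lower, with a median of 0.09 against -0.04 over all genes and 0.12 over genes above 100 CPM. On the scale of the abundant genes 48 members were lower, with a median of -0.04 against -0.15 for all genes. On the TMM scale, 14 were lower without the third saline library (median 0.15), 16 without the first (0.14) and 10 without the first synuclein library (0.22). The median fell to 0.06 without the second or without the third synuclein library, and to 0.08 without the second saline library. No member and no gene (0.0%) passed edgeR's test, where the smallest adjusted p of a member was 0.902, and 0 members had an unadjusted p under 0.05 against 5.57% of genes.

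The 7 members that were higher without overlap stand beside 4.01% of all genes, and 0 were lower without overlap beside 6.67%. Atp5f1, the b subunit of the peripheral stalk, had 225.6, 174.4 and 229.7 CPM with saline and 254.2, 301.1 and 270.1 with synuclein, a log2 fold of 0.39 ± 0.22. Ndufv3, an accessory subunit of the NADH-binding module, had 122.1, 93.2 and 113.1 CPM with saline and 149.2, 152.5 and 125.8 with synuclein (0.38 ± 0.26). Ndufc1, a small membrane-arm accessory subunit, had 76.3, 69.2 and 63.7 CPM with saline and 88.9, 98.2 and 85.0 with synuclein (0.38 ± 0.25). Of Atp5f1's 50-base words, 37.6% are shared with other genes, and its locus in the tables is shared with 1 other gene. The other 4 without overlap were Atp5c1, Ndufb10, Ndufb3 and Uqcrb. In complex II the order differed: 3 of 4 genes were lower, with Sdhb at 171.4, 129.4 and 188.6 CPM with saline and 112.8, 144.0 and 170.0 with synuclein, and these groups overlapped.

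**Figure D5:**
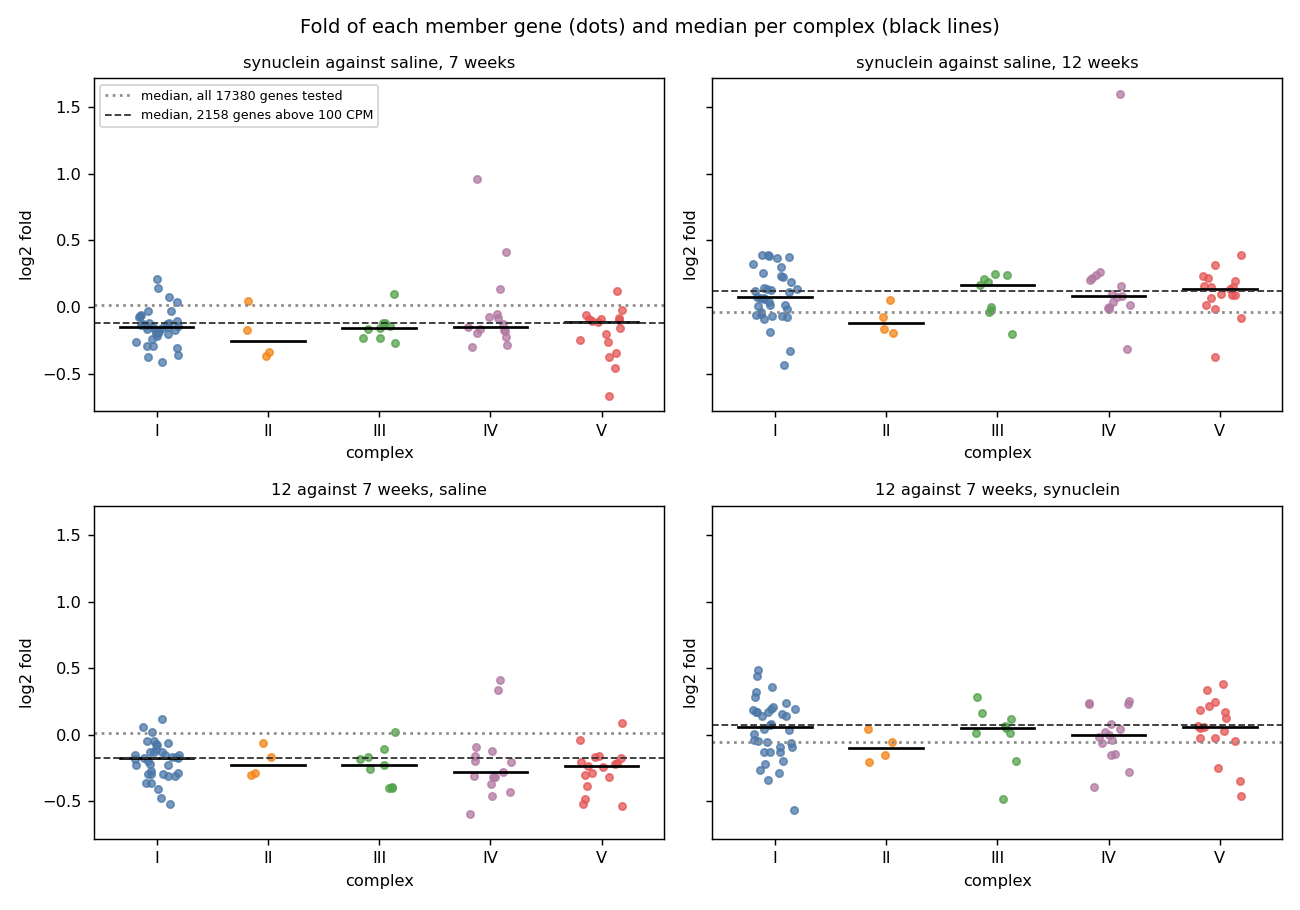
Log2 fold of each member (dots) by complex in 4 comparisons on the TMM scale, with the complex median (black line), the median of all 17380 genes tested (dotted) and of 2158 genes above 100 CPM (dashed). With synuclein, complex medians lie between -0.26 and -0.11 at 7 weeks and between -0.12 and 0.17 at 12 weeks; on the scale of the abundant genes the medians over all members are 0.00 and -0.04.

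The difference between the synuclein effects at the 2 times was positive for 72 members, with a median of 0.26 against -0.05 for all genes and 0.24 for genes above 100 CPM. On the abundant-gene scale 43 were negative, with a median of -0.02 against -0.31 for all genes. On the TMM scale, 9 were negative in all, and this count was 3 without the second 7-week saline library, 17 without the third, 4 without the first 12-week synuclein library, 16 without the third and 15 without the third 7-week synuclein library. The median was 0.13 without the third 7-week saline library, and 0.44 without the second or without the first 7-week synuclein library. No member or gene passed edgeR's test of this difference (0.0% of genes), the smallest adjusted p of a member being 0.952, and 0 members had an unadjusted p under 0.05 against 4.49% of genes. These effects share no libraries, but each is set against its own saline group. Markers of other cells also differed between the times. Of the endothelial markers, 12 of 12 were lower with synuclein at 7 weeks (median -0.27) and 12 of 12 higher at 12 weeks (0.29). They summed to 17651 to 32637 CPM with saline and 17625 to 23119 with synuclein at 7 weeks, and to 12809 to 18196 and 14235 to 23149 at 12 weeks. The highest sum was that of the third 7-week saline library. None of the 12 fell below 131 CPM in any library. Their folds are on the TMM scale, where genes above 100 CPM had medians of -0.12 at 7 weeks and 0.12 at 12 weeks. Of the microglia markers, 11 of 12 were higher with synuclein at 7 weeks (median 1.16, 0 called) and 8 of 12 lower at 12 weeks (-0.81), and the difference between the effects was negative for 12 of 12 (-1.66). The microglia markers summed to 146, 115 and 248 CPM with saline and 264, 146 and 668 with synuclein at 7 weeks. The third synuclein library thus stood far above the rest. At 12 weeks the sums were 113 to 220 and 82.7 to 181 CPM. P2ry12, Tmem119, Aif1 and Trem2 were at 0 in 2, 4, 1 and 2 libraries. The part of these cells in the members' values was not tested.

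From 7 to 12 weeks in saline, 74 of 81 members were lower, with a median of -0.22 against 0.01 over all genes and -0.17 over genes above 100 CPM. Scaled to the abundant genes, the member median was -0.04 against 0.17 for all genes. On the TMM scale it was also -0.04 without the third 7-week library (52 lower), and -0.35 without the second (79 lower). No member passed edgeR's test (0.0% of genes did). Only Atp5g3 had an unadjusted p under 0.05, against 7.42% of genes. It stood at 225.2, 223.3 and 283.2 CPM at 7 weeks and 167.3, 145.6 and 192.1 at 12 weeks, with a log2 fold of -0.53 ± 0.24 (adjusted p = 0.632). Groups did not overlap for 11 lower members (7.83% of all genes) and 0 higher (8.34%).

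Of these 11, Ndufs4, an accessory subunit needed for a stable complex I, had 93.9, 96.3 and 102.2 CPM at 7 weeks and 58.6, 61.6 and 84.1 at 12 weeks (-0.52 ± 0.28). Atp5o, the stalk protein that binds the top of the catalytic head, had 216.7, 151.7 and 230.2 CPM and then 133.7, 147.0 and 148.4 (-0.48 ± 0.25), with 45.6% of its 50-base words shared with other genes. The other 8 were Atp5b, Atp5d, Cox7a2, Cox8a, Ndufa6, Ndufs3, Sdha and Uqcrfs1. Over the same interval in saline, 12 of 12 oligodendrocyte markers were higher (sums of 16148 to 25518 CPM at 7 weeks, 25598 to 44118 at 12), 12 of 12 endothelial markers lower (17651 to 32637, then 12809 to 18196) and 11 of 12 dopaminergic markers lower (1461 to 2293, then 637 to 1219), as were 12 of 12 general neuronal markers (median -0.96). Ependymal markers were higher for 7 of 7 (sums of 8.9 to 20.8 CPM, then 32.4 to 237), with 4 of these genes at 0 in at least 1 library. These marker folds are on the TMM scale, where genes above 100 CPM had a median of -0.17. The part of all these cells in the members' values was not tested.

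From 7 to 12 weeks with synuclein, 34 members were lower and 47 higher, with a median of 0.04 against -0.06 over all genes and 0.07 over genes above 100 CPM. The abundant-gene scale gave -0.07 against -0.16 for all genes. The direction of the median changed with 1 library: it was -0.01 without the third 7-week library, where 44 members were lower. It was 0.00 without the third 12-week library, 0.02 without the second and 0.03 without the second 7-week library. It was 0.17 without the first 12-week library (18 lower) or the first 7-week library (13 lower), and 0.07 to 0.09 without any 1 saline library. No member or gene (0.0%) passed edgeR's test. Ndufv1, the core subunit that binds NADH, was the only member with an unadjusted p under 0.05, against 7.58% of genes: 177.9, 149.7 and 193.1 CPM at 7 weeks and 112.0, 86.1 and 154.2 at 12 weeks (-0.56 ± 0.27, adjusted p = 0.659), with overlap between the groups.

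Groups did not overlap for 3 lower members (7.13% of all genes) and 1 higher member (5.13%). Cyc1 had 200.4, 166.0 and 148.6 CPM at 7 weeks and 92.0, 140.4 and 136.6 at 12 weeks (-0.48 ± 0.30). Cox5a, a subunit on the matrix side of complex IV, had 201.6, 192.3 and 163.1 CPM and then 150.4, 155.2 and 153.6 (-0.28 ± 0.22), with 32.0% of its 50-base words shared. Ndufa1, a membrane-arm accessory subunit, had 174.7, 167.1 and 170.8 CPM and then 104.1, 159.1 and 157.8 (-0.28 ± 0.25). Ndufb11, a membrane-arm accessory subunit too, was the higher member, at 157.6, 128.8 and 141.4 CPM and then 185.0, 184.8 and 163.2 (0.32 ± 0.22). Over this interval 12 of 12 oligodendrocyte markers were higher (sums of 16921 to 20348 CPM at 7 weeks, 26855 to 39043 at 12). Lower were 11 of 12 dopaminergic markers (780 to 2686, then 729 to 896) and 11 of 12 general neuronal markers (1057 to 2877, then 690 to 1012). Microglia markers were lower for 12 of 12 (264, 146 and 668 in the 7-week libraries, then 82.7 to 181). Ependymal markers were higher for 7 of 7 (9.4 to 44.9, then 8.5 to 498), with 4 of these genes at 0 in at least 1 library. Of the endothelial markers 7 of 12 were higher, with a median of 0.02. The part of these cells in the members' values was not tested.

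Averaged over both treatments, 55 members were lower at 12 weeks and 26 higher, with a median of -0.11 against -0.03 over all genes and -0.05 over genes above 100 CPM. The median was -0.02 without the third 7-week saline library (45 lower), -0.03 without the first 7-week synuclein library (47 lower), and -0.05 without the second 12-week saline library (47 lower) or the first 12-week synuclein library (51 lower). edgeR called 145 genes (0.834%) in this comparison, 94 higher and 51 lower, and 0 were members. Oligodendrocyte markers were higher for 12 of 12 (median 0.89, 7 called). General neuronal markers were lower for 12 of 12 (median -1.02, 2 called) and dopaminergic markers for 11 of 12 (-1.25, 2 called). Endothelial and microglia markers were lower for 12 of 12 each (-0.26 and -0.82, 0 called), and astrocyte markers for 7 of 10 (-0.10, 1 called). Pericyte and smooth muscle markers were lower for 7 of 12 (-0.31, 0 called). Ependymal markers were higher for 7 of 7 (2.46, 0 called), with sums of 8.9 to 44.9 CPM at 7 weeks and 8.5 to 498 CPM at 12 weeks. The part of these cells in the members' values was not tested. The call count was 24 to 214 with any 1 library left out and 0 without the first and second 12-week synuclein libraries together. The members with an unadjusted p under 0.05 were Atp5g3 (-0.44 ± 0.17, adjusted p = 0.326), Cox5a (-0.37 ± 0.16, adjusted p = 0.409) and Cyc1 (-0.44 ± 0.21, adjusted p = 0.508), against 9.82% of genes. No member's 6 libraries at 12 weeks were free of overlap with the 6 at 7 weeks (0.386% of genes were lower and 0.558% higher without overlap). Averaged over both times, 46 members were lower with synuclein and 35 higher, with a median of -0.02 against -0.01 over all genes, 0 called members (0.0% of genes) and 0 with an unadjusted p under 0.05 (2.48% of genes). No member was free of overlap between the treatments over both times, beside 0.0633% of genes lower and 0.0115% higher. The sign of that median changed with 1 library. It was 0.05 without the third 7-week saline library (28 lower), 0.03 without the third 7-week or the first 12-week synuclein library, 0.02 without the second 7-week synuclein library, and 0.01 and 0.00 without the third and the first 12-week saline library. Without each of the other 6 it lay between -0.09 and -0.02.

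Of the genes that build, fuel or regulate the chain, none passed edgeR's test in any comparison. Of 42 assembly factors and small carriers, 29 were lower with synuclein at 7 weeks (median -0.15) and 26 higher at 12 weeks (0.06). Of 16 citric acid cycle genes, 9 were lower at 7 weeks (-0.05) and 10 higher at 12 weeks (0.14). Of 12 regulators of mitochondrial biogenesis, 7 were higher at each time (0.12 and 0.08). The next 3 genes were singled out after their values were seen. Cycs, which encodes the cytochrome c that carries electrons to complex IV, had 322, 257 and 310 CPM in the 7-week saline libraries and 276, 184 and 181 in the 12-week ones. With synuclein, Cycs had 280, 209 and 224 CPM at 7 weeks and 244, 313 and 194 at 12 weeks. Sco1, a copper chaperone for complex IV, had 42.1, 47.6 and 34.5 CPM with saline and 12.1, 13.7 and 21.8 with synuclein at 12 weeks, a log2 fold of -1.38 ± 0.37 (adjusted p = 0.830). Sucla2, a succinyl-CoA ligase subunit, had 144.5, 157.8 and 146.9 CPM in saline at 7 weeks and 81.2, 84.9 and 79.5 at 12 weeks, with a log2 fold of -0.87 ± 0.28 (adjusted p = 0.385).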

How the data were processed

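Per the submitters' processing notes, the tools were TopHat2 2.0.13, Bowtie2 2.2.3 and Cufflinks 2.2.1, and no source used here gives a genome build. The deposited tables hold estimated counts and FPKM for 24346 genes and 12 libraries. The deposited estimated counts were scaled: 98.8% to 99.0% of values per library were whole multiples, within 0.02, of a step of 0.685 to 1.30, and dividing by it gave the fragments per library. The deposited counts were rounded and tested in edgeR 4.0.16 (R 4.3.3) with filterByExpr (17380 genes), TMM and a quasi-likelihood fit with 1 mean per group (8 residual degrees of freedom, common biological coefficient of variation 46.6%). The Benjamini-Hochberg adjustment ran over every gene tested, with a threshold of 0.05. Folds are log2 with standard errors, and the median standard error of a member was 0.25 between 2 groups. CPM values are TMM-scaled, and levels between genes are compared in deposited FPKM only. The procedure was tested on simulated counts.

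Members named are those called, the 3 largest of each direction among members without overlap between groups, the 2 highest in FPKM per complex, isoform sets and catalytic subunits; exceptions are named as chosen after seeing values. Members, lists and comparisons were chosen with earlier results of these data known, so no p is given for a list. Alternatives used DESeq2 1.42.0, limma 3.58.1, other scalings, filters and left-out libraries. Of the members, 12 share a locus string with another gene in the tables (Atp5d and Ndufs7 with 48 others), 24 share over 10% of 50-base transcript words with another gene (GENCODE M21) and 1, Atp5l, over 50% (84.8%); their values are uncertain. Mitochondrially encoded genes are not analysed here.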

Additional observations from a re-analysis of the deposited data

How the results depend on the processing

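No member was called under any of the 22 alternatives. The folds of members named for non-overlapping groups kept their direction in all 286 values. These members were chosen for lack of overlap in the same libraries, which nearly fixes the direction, so this does not measure robustness. Genes called were 12 with DESeq2 and 1 with limma on log2(FPKM + 1) for synuclein at 12 weeks. For time in saline they were 173 with DESeq2, 1 with limma, 7 with no filter, 49 with only the libraries compared, 14 without both 12-week synuclein libraries 1 and 2, and 0 to 9 with 1 library left out. For time with synuclein they were 59 with DESeq2 and 0 to 2 with 1 library left out, and for the difference between times 1 with limma. For time over both treatments they were 449 with DESeq2, 5 with limma, 76 on the scale of genes above 100 CPM, 0 without both libraries and 24 to 214 with 1 left out. For synuclein over both times they were 3 with DESeq2. With 1 library left out, synuclein gave 0 to 1 at 7 weeks, 0 to 1 at 12 weeks and 0 to 1 over both times. On the scale of genes above 100 CPM, chosen after seeing the data, members lower were 40 at 7 weeks, 48 at 12 weeks and 43 for the difference, whose median was -0.019. With 1 library left out, members lower were 10 to 31 for synuclein at 12 weeks, 13 to 44 for time with synuclein, 3 to 17 for the difference and 28 to 62 for synuclein over both times. The cause of these shifts was not tested.

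Same-numbered libraries of different groups had correlations of -0.06 to 0.11, above 0.1 in 1 of 18 pairs. Their mean was 0.03, against -0.01 for differently numbered libraries, and 5 of 12 libraries lay closest to their own number. Whether a number marks a shared animal or batch cannot be decided from 3 libraries per group. With the replicate number as a block, 34 genes were called for time in saline and 246 for time over both treatments, with 0 members. Depth limits Cox6b2, Cox7a1 and Ndufa4l2, which rest on few fragments.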
